A study of Mus musculus with 4 samples.

Results

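The genes described here make cholesterol and fatty acids, or regulate and move those lipids. The list holds 42 gene symbols, chosen by name from the mevalonate, sterol and fatty acid pathways and their regulators and transporters, and 1 further probe set that the platform annotation used here does not pair with a gene, called the unnamed probe set below. Of these 43 members, 40 had a probe set of their own, the unnamed one included. Over the whole array 12393 genes were measured that way, and the unnamed probe set is not counted among them. Acat2, Insig1 and Soat1 had no such probe set, so their levels are not analysed here. A gene with more than 1 probe set is given by its brightest, that is, the one highest in mean log2 intensity over the 4 arrays. Levels were read on 1-colour Affymetrix arrays of clones of Py-4-1, a mouse hemangioendothelioma line grown out of an endothelial tumour. Per the labels, 2 clones carried pcDNA/Prox1 and were described as stable expressers of Prox1, a homeobox transcription factor that gives lymphatic endothelium its identity, and 2 clones carried pcDNA alone as control. Each clone was grown to near confluence and read on 1 array. The 2 clones within a group are therefore the replicates, and culture, RNA and array handling cannot be told apart from clonal differences. The series title concerns the invasion of kaposiform hemangioendothelioma, and the arrays bear on which transcripts differed between the 2 kinds of clone.

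Cells build cholesterol from acetyl-CoA through mevalonate, isoprenoid diphosphates, squalene and lanosterol, and build fatty acids from acetyl-CoA through malonyl-CoA. Both routes are controlled by sterol regulatory element-binding proteins (SREBPs), transcription factors made as membrane precursors in the endoplasmic reticulum. When membrane cholesterol is low, the escort protein SCAP carries the precursors to the Golgi, where proteases release the active factors. When cholesterol is high, INSIG proteins hold SCAP back. Srebf2 is best known for sterol genes and Srebf1 for fatty acid genes, and both act on promoters together with the CCAAT-binding factor NF-Y. Oxysterols act through the liver X receptors (LXRs) on export genes such as Abca1.

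Values are linear intensities, 1 per probe set and array, that shared a trimmed mean as the authors deposited them, with medians of 173 to 179.7 in the Prox1-labelled clones and 163 to 177 in the pcDNA clones. The level of Prox1 itself did not separate the groups as labelled. Its 1 probe set read 62.4 and 44.3 in the Prox1-labelled clones, against 52.1 and 60.5 in the pcDNA clones (log2 change -0.047, limma without the intensity filter, adjusted p = 0.963), and lay under the highest of 27 Bacillus control probe sets on 3 of 4 arrays. Whether this probe set reads the transfected copy, and whether each array holds the clone its label names, was not tested. Every direction below therefore rests on the labels alone, and the groups are called by them. All 10 endothelial markers listed had a positive log2 change, with summed intensities of 34153 to 36714 in the Prox1-labelled clones and 26536 to 33153 in the pcDNA clones. Vwf and Cldn5 did not pass the filter and lay under the highest Bacillus control on 4 and 3 of 4 arrays, so their signs rest on floor values. Of the markers past the filter, Cdh5 read 3340.4 and 3332 in the Prox1-labelled clones, against 2133 and 4091 in the pcDNA clones, and no clone lacked it. None of the 10 passed the adjusted limma threshold, and 1 of the 8 past the filter, Tek, had an unadjusted p under 0.05. Of all genes, 49.6% had a positive log2 change. Of genes past the filter, 8.22% were higher with an unadjusted limma p under 0.05. Hepatocytes and adipocytes are cell types rich in lipid synthesis, and 3 of 5 and 3 of 3 of their markers measured lay under the highest Bacillus control on all arrays. Their summed intensities were 136 to 178 and 49.7 to 74.4 in the Prox1-labelled clones, and 173 to 178 and 40.9 to 59.8 in the pcDNA clones. Of the leukocyte, epithelial and fibroblast markers measured, 1 of 4, 0 of 5 and 1 of 5 passed the filter. The part of these endothelial marker differences in the results below was not tested. An array of a whole culture does not tell fewer expressing cells from less RNA per cell.

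The promoter windows of 6 listed genes are shown because the genes gave high, middling and low changes and their windows differ in CCAAT, the NF-Y box. Sequences are from RefSeq (GRCm38.p6) and run 5′ to 3′ on the gene's strand from 250 bases before to 50 bases after the annotated start. Capitals mark CCAAT or its reverse complement ATTGG, and in Hmgcs1 also the 1 match to TCACNCCAC, a core of the sterol regulatory element.
Msmo1 promoter, chr8:64733529-64733828, minus strand: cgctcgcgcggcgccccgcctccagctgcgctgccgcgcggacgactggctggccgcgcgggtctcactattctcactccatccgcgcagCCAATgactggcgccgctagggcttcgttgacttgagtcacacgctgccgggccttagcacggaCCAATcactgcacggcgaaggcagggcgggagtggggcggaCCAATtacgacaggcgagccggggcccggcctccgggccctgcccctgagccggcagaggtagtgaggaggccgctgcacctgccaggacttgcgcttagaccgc
Idi1 promoter, chr13:8885356-8885655, plus strand: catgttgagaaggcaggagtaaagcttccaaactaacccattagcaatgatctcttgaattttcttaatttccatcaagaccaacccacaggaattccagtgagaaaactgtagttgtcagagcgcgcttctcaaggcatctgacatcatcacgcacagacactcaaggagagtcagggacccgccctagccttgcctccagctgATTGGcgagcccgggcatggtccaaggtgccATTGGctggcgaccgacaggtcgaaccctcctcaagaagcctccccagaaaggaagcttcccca
Nsdhl promoter, chrX:72918271-72918570, plus strand: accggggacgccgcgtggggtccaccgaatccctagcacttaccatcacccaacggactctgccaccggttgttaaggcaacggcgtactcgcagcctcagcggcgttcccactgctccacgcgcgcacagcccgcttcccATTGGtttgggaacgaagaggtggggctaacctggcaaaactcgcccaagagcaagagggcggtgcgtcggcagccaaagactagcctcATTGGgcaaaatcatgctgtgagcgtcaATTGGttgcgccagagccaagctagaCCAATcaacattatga
Cyp51 promoter, chr5:4104648-4104947, minus strand: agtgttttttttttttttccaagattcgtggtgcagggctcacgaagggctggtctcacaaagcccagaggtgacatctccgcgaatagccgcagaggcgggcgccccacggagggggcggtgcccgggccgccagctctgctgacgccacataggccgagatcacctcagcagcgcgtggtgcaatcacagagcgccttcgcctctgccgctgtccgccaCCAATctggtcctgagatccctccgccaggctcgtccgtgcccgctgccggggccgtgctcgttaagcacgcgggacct
Hmgcs1 promoter, chr13:119690101-119690400, plus strand: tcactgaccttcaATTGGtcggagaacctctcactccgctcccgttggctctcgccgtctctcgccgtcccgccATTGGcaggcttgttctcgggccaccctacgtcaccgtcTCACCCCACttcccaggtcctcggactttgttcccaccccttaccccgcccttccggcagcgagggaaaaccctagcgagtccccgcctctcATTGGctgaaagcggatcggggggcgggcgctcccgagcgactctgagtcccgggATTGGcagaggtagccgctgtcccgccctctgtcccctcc
Hacd1 promoter, chr2:14055986-14056285, minus strand: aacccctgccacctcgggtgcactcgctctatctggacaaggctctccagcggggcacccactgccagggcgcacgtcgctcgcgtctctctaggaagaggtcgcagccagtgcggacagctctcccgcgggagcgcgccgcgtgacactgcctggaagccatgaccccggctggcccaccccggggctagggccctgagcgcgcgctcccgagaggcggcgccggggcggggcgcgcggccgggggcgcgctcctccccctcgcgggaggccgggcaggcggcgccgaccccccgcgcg

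CCAAT was found 3 times in the Msmo1 window, 2 times in that of Idi1, 4 times in those of Nsdhl and Hmgcs1, 1 time in that of Cyp51 and 0 times in that of Hacd1. Across the listed genes the count did not go with the direction of change throughout. The windows of Fads2 and Abca1 (log2 changes 0.91 and 0.74) held 0. Those of Fasn and Ebp (-0.12 and -0.23) held 3 and 2. Windows were at hand for 33 of the 42 symbols (not for Abcg1, Fads1, Fdft1, Fdps, Npc1, Scd1, Scd2, Sqle and Stard4), and a gene with several starts counted as holding a motif if any of its windows did. The 33 include Acat2, Insig1 and Soat1, whose levels were not read. On either strand, CCAAT stood in 26 of the 33 genes (78.8%), against 41.1% of 27025 genes with a window and 42.3% of the 9883 of them with a probe set here. Among the mevalonate and sterol enzymes it stood in 15 of 16 (93.8%), in all but Acat2, and among the fatty acid enzymes in 5 of 9 (55.6%). The GC box GGGCGG stood in 27 of the 33 (81.8%), against 38.2% of all genes and 61.1% of those with a probe set. TCACNCCAC stood in 1 of the 33 (3.03%), Hmgcs1, with its first base at position -137 from the start, against 1.44% of all genes. Of 53 CCAAT matches in windows of listed genes, 1 overlapped a match of another of these motifs. These shares describe letters in short windows, and no test was made of them.

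More sterol and fatty acid genes read higher than lower in the Prox1-labelled clones, and 1 of the 40 members measured passed the test. This was the unnamed probe set (limma, Benjamini-Hochberg adjusted p under 0.05 over all 11656 probe sets tested), where the background was 0.103% of probe sets and 0.115% of genes. It entered the test only through the Prox1-labelled arrays, so that its pass is no support for a difference of the list, and without the intensity filter 0 members passed (12 had an unadjusted p under 0.05 in limma). Log2 changes were positive for 32 of 40 members (28 under quantile normalization and 29 under median centring), against 49.6% of all genes. The median over the 40 was 0.23 in log2 units, with -0.0020 over all genes. Both Prox1-labelled clones lay above both pcDNA clones for 19 members, where this held for 20.2% of all genes, and both lay below for 5, where this held for 21.3%. An unadjusted p under 0.05 was reached by 13 members on the higher side and 1 on the lower, against 8.22% and 6.13% of genes past the intensity filter. The 32, the 19 and the 13 each include the unnamed probe set, which is not among the genes of those shares. Its place in the 13 rests on the same entry through the Prox1-labelled arrays and is no support either. That filter (above the array median on at least 2 of 4 arrays) was passed by 36 members. Acss2, Acaca, Elovl6 and Npc1 did not pass, and their values come from the same fit without it.

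**Figure D1:**
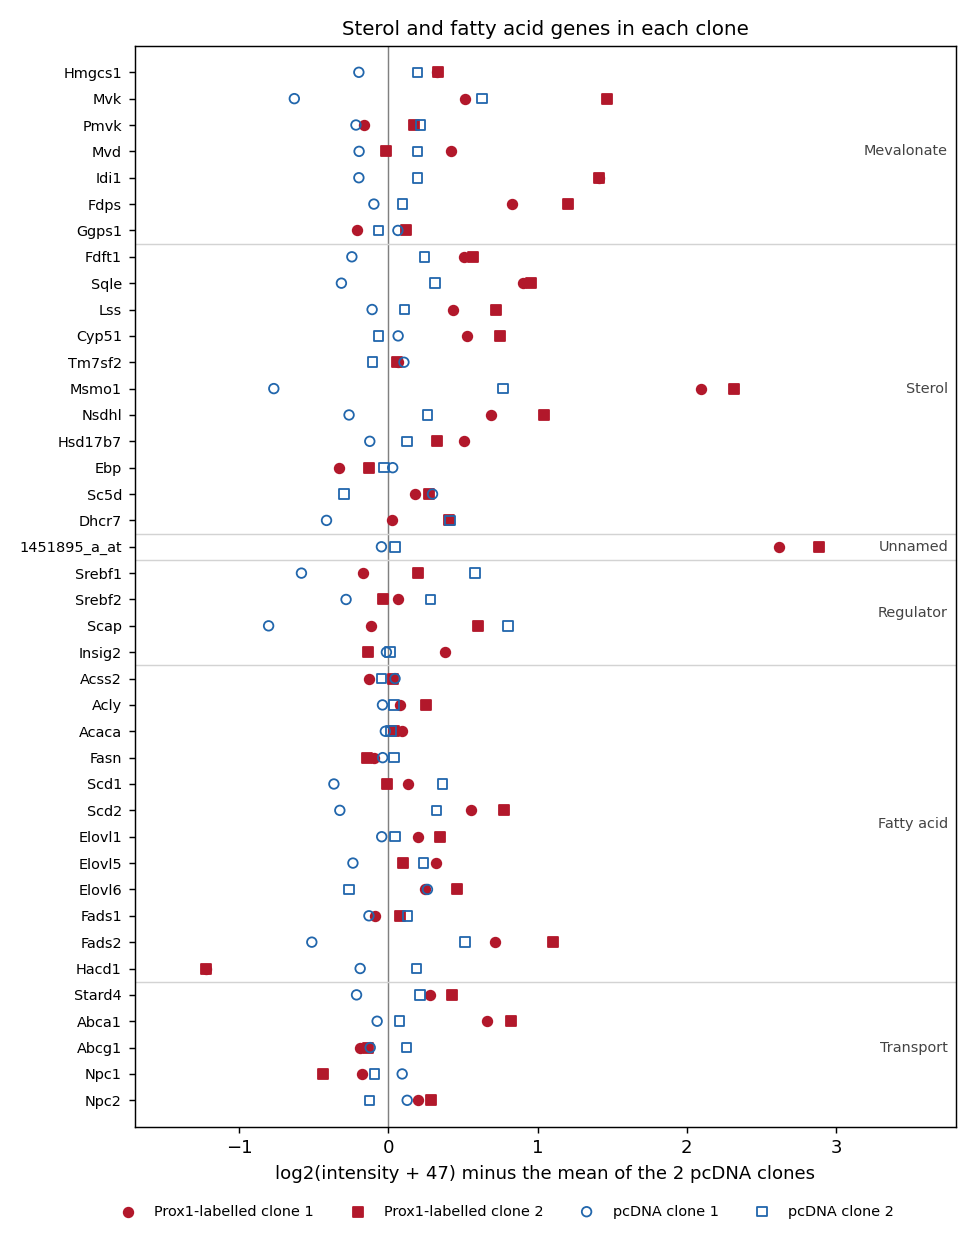
Level of each of the 40 members in each clone, as log2(intensity + 47) minus the mean of the 2 pcDNA clones, with red filled symbols for the Prox1-labelled clones and blue open symbols for the pcDNA clones (circles, clone 1; squares, clone 2). The Prox1-labelled clones lie right of both pcDNA clones for 19 members and left of both for 5, and of the named members Msmo1 lies farthest to the right. The unnamed probe set is marked by its identifier. Both its pcDNA values were under the highest Bacillus control, so its distance is not a measured size.

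The plot of all members by clone shows how wide the pcDNA clones lay. Over the 40 members, pcDNA clone 2 exceeded pcDNA clone 1 by a median of 0.25 in log2 units, with 0.048 over all genes, and it read higher in 31 of the 40. Over the whole array, 282 probe sets lay at least 2-fold apart between the Prox1-labelled clones and 700 between the pcDNA clones. Without pcDNA clone 1 the median over the 40 was 0.14, with 26 positive, and without pcDNA clone 2 it was 0.44, with 31 positive. Non-overlap is easier to reach with 3 clones than with 4. Without pcDNA clone 1, 22 members were higher without overlap and 12 lower, where this held for 33.3% and 40.4% of all genes. Without pcDNA clone 2, 29 were higher and 8 lower, where this held for 40.6% and 36.1% of all genes. With 2 clones in each group, an exact two-sided permutation test has 0.333 as its smallest p, so single values were tested in the fit across all probe sets.

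Among the mevalonate enzymes, the groups lay farthest apart in Idi1 and Fdps, and 4 of the 7 had overlapping groups. Of the 7 measured, 6 had a positive change, 3 lay higher without overlap and 0 passed the adjusted limma threshold (3 had an unadjusted p under 0.05). Of all genes, 49.6% were positive and 20.2% lay higher without overlap. Of genes past the filter, 8.22% were higher with an unadjusted limma p under 0.05. Idi1, the isomerase that makes dimethylallyl from isopentenyl diphosphate, read 838 and 836 in the Prox1-labelled clones, against 243 and 334 in the pcDNA clones. Both Prox1-labelled values lay far above the pcDNA values and were close to each other (log2 change 1.41 ± 0.21, limma adjusted p = 0.0638). Fdps, which joins these units into farnesyl diphosphate, read 1379 and 1803 in the Prox1-labelled clones, against 704 and 811 in the pcDNA clones. These groups did not overlap either (log2 change 1.02 ± 0.21, limma adjusted p = 0.128). Mvk, the mevalonate kinase, read 204 and 436 in the Prox1-labelled clones, against 66.3 and 224 in the pcDNA clones. The pcDNA clones lay wide apart, and clone 2 of them exceeded Prox1-labelled clone 1 (log2 change 0.99 ± 0.43, limma adjusted p = 0.332).

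Hmgcs1, which makes HMG-CoA from acetoacetyl-CoA, read 755 and 761 in the Prox1-labelled clones, against 512 and 687 in the pcDNA clones. It was higher without overlap, but pcDNA clone 2 came near the Prox1-labelled clones, and with 1 clone left out the change ran from 0.13 to 0.53 (log2 change 0.33 ± 0.21, limma adjusted p = 0.511). Over its 4 probe sets the log2 change ran from 0.14 to 0.69, and the groups overlapped at the one with 0.14. The kinase gene Pmvk and the decarboxylase gene Mvd, which act between mevalonate and isopentenyl diphosphate, had overlapping groups with log2 changes of 0.0029 and 0.20. Pmvk was negative under quantile normalization and median centring (-0.042 under each). Ggps1, which extends farnesyl to geranylgeranyl diphosphate and so leads away from sterols, read 220.3 and 288 in the Prox1-labelled clones, against 276 and 249 in the pcDNA clones. Its groups overlapped as well (log2 change -0.047 ± 0.22, limma adjusted p = 0.949).

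Sterol enzymes, from squalene to cholesterol, had the highest median of the named classes, 0.54 in log2 units over 11 genes. Of these, 10 were positive, 7 lay higher and 1 lower without overlap, and 0 passed the adjusted limma threshold (6 had an unadjusted p under 0.05, all on the higher side). Of all genes, 20.2% lay higher and 21.3% lower without overlap. Of genes past the filter, 8.22% were higher with an unadjusted limma p under 0.05. Msmo1, the oxidase that removes methyl groups at carbon 4 of the sterol ring, read 655 and 769.7 in the Prox1-labelled clones, against 49.6 and 233 in the pcDNA clones. Of the named members it had the largest change, and pcDNA clone 1 stood far below pcDNA clone 2, just above the highest Bacillus control of its array, 45.3 (log2 change 2.20 ± 0.42, limma adjusted p = 0.112). Nsdhl, the dehydrogenase that acts after Msmo1 in the same demethylation, read 1042 and 1347 in the Prox1-labelled clones, against 516 and 764 in the pcDNA clones. Every Prox1-labelled value exceeded every pcDNA value (log2 change 0.87 ± 0.24, limma adjusted p = 0.178). Sqle, the squalene epoxidase and a rate-limiting enzyme of the route, read 1086 and 1130 in the Prox1-labelled clones, against 441 and 707 in the pcDNA clones. Its Prox1-labelled values were near each other and above both pcDNA values (log2 change 0.93 ± 0.24, limma adjusted p = 0.167).

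Cyp51, the lanosterol demethylase of the cytochrome P450 family, read 847 and 998 in the Prox1-labelled clones, against 603 and 546 in the pcDNA clones. Here the pcDNA clones were close together (log2 change 0.64 ± 0.19, limma adjusted p = 0.208). Lss, which closes the rings to lanosterol, read 279.7 and 351 in the Prox1-labelled clones, against 177 and 213 in the pcDNA clones. The gap between the groups was wider than the gap between the pcDNA clones (log2 change 0.58 ± 0.22, limma adjusted p = 0.282). Fdft1, the squalene synthase at the branch into sterols, and Hsd17b7, which reduces the ketone left by Nsdhl, were also higher without overlap, with log2 changes of 0.54 (0.29 to 0.78 with 1 clone left out) and 0.42 (0.29 to 0.54). Other steps differed less. Sc5d and Dhcr7, which act near the end of the route, and the reductase gene Tm7sf2, which acts after Cyp51, had overlapping groups and log2 changes of 0.23, 0.21 and 0.060. Tm7sf2 was negative under quantile normalization (-0.00087). The isomerase gene Ebp read 552 and 642 in the Prox1-labelled clones, against 723 and 692 in the pcDNA clones. It was the 1 sterol enzyme lower without overlap (log2 change -0.23 ± 0.19, limma adjusted p = 0.633).

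**Figure D2:**
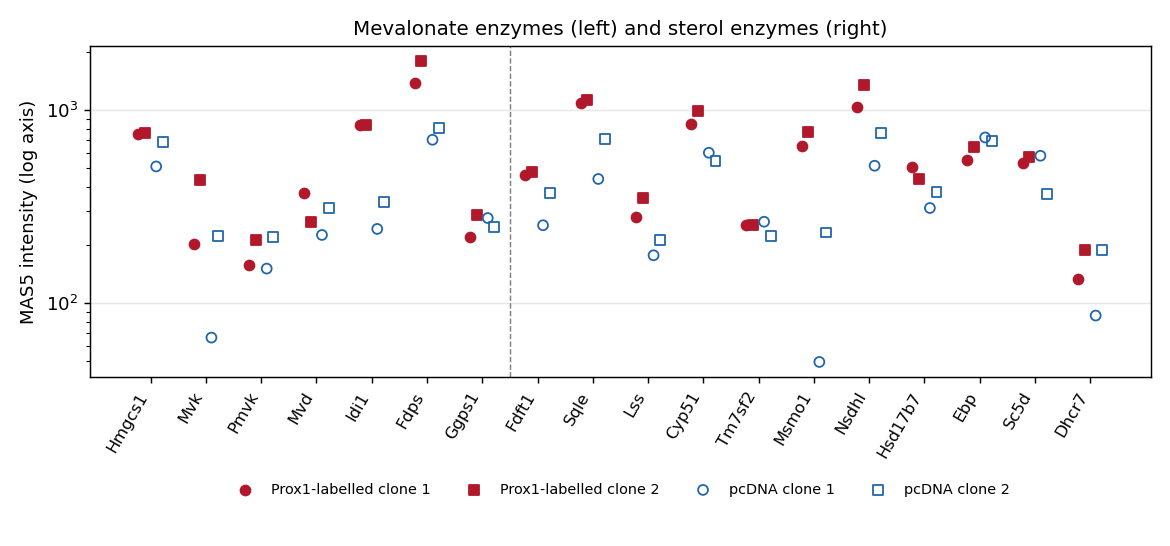
Deposited intensity (log axis) of the 7 mevalonate enzymes, left of the dashed line, and the 11 sterol enzymes, right of it, in each Prox1-labelled clone (red, filled) and each pcDNA clone (blue, open). The pcDNA clone 1 values of Mvk (66.3) and Msmo1 (49.6) stand apart below the other clones, and Idi1 and Fdps show a gap between the groups wider than that within them. Heights of different genes come from different probes and are not comparable.

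The unnamed probe set rose in the Prox1-labelled clones under the intensity filter, which it passed through the Prox1-labelled arrays alone. It read 365 and 449 in the Prox1-labelled clones, against 17.9 and 22.2 in the pcDNA clones (log2 change 2.75 ± 0.23, limma adjusted p = 0.00617). Both pcDNA values lay under the highest Bacillus control of their array, so the fitted size is not a measured one and is not ranked against other members. With those controls (45.3 and 101) in place of the pcDNA values, the mean of the Prox1-labelled clones was at least 6.0-fold higher (means of log2 values). Without the filter the call was lost (limma adjusted p = 0.367, the highest over the alternatives, with 3.65e-06 the lowest). It is given no role, because no source used here pairs it with a gene.

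At their brightest probe sets, the 4 regulators measured had overlapping groups, and limma called 0 of them, with 0 at an unadjusted p under 0.05. Over the whole array, 7249 of 12393 genes had overlapping groups. Of genes past the filter, 8.22% were higher and 6.13% lower with an unadjusted limma p under 0.05. Srebf1 read 673 and 882 in the Prox1-labelled clones, against 493 and 1162 in the pcDNA clones. The pcDNA clones enclosed both Prox1-labelled values (log2 change 0.017 ± 0.34, limma adjusted p = 0.989, negative under quantile normalization and median centring). Srebf2 read 558 and 517 in the Prox1-labelled clones, against 428 and 657 in the pcDNA clones. Again the pcDNA clones lay outside the Prox1-labelled ones (log2 change 0.013 ± 0.23, limma adjusted p = 0.989, also negative under both scalings). Its other probe set was higher without overlap, with a log2 change of 0.83 (limma unadjusted p = 0.0310, adjusted p = 0.290), so that the probe sets of Srebf2 disagree. Scap, the escort, read 284 and 499 in the Prox1-labelled clones, against 159 and 579 in the pcDNA clones. Here too the pcDNA clones were the lowest and the highest (log2 change 0.24 ± 0.46, limma adjusted p = 0.857). Insig2, a retention protein, read 518 and 347 in the Prox1-labelled clones, against 383 and 390.4 in the pcDNA clones. Its Prox1-labelled clones lay on either side of the pcDNA clones (log2 change 0.12 ± 0.23, limma adjusted p = 0.855). These are transcript levels, and the arrays do not read the cleavage that activates SREBPs.

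The core of fatty acid synthesis showed small differences. Acly, the citrate lyase that supplies cytosolic acetyl-CoA, read 2783 and 3158 in the Prox1-labelled clones, against 2566 and 2710.1 in the pcDNA clones. The groups did not overlap, and the change was small (log2 change 0.17 ± 0.18, limma adjusted p = 0.727). Fasn, the fatty acid synthase, read 1864 and 1808 in the Prox1-labelled clones, against 1944 and 2051 in the pcDNA clones. It was lower without overlap, also by little (log2 change -0.12 ± 0.18, limma adjusted p = 0.812). Acaca, the carboxylase that makes malonyl-CoA, and Acss2, which activates acetate, lay below the filter with log2 changes of 0.063 and -0.049.

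Larger differences were seen among desaturases and elongation enzymes, in both directions. Of the 12 fatty acid enzymes, 8 had a positive change, and 5 lay higher and 2 lower without overlap (20.2% and 21.3% of all genes). The median was 0.12, and 0 passed the adjusted limma threshold. An unadjusted limma p under 0.05 was reached by 2 higher and 1 lower (8.22% and 6.13% of genes past the filter). Without pcDNA clone 1 that median was 0.020. Fads2, a front-end desaturase of polyunsaturated fatty acids, read 969 and 1288 in the Prox1-labelled clones, against 388 and 838 in the pcDNA clones. Its groups did not overlap, although the pcDNA clones differed widely (log2 change 0.91 ± 0.32, limma adjusted p = 0.253). Its neighbour in the pathway, Fads1, had overlapping groups (log2 change -0.0065 ± 0.19, limma adjusted p = 0.993). Scd2, a stearoyl-CoA desaturase that makes monounsaturated fatty acids, read 4843 and 5653 in the Prox1-labelled clones, against 2616 and 4129.6 in the pcDNA clones. It was higher in both Prox1-labelled clones than in either pcDNA clone (log2 change 0.66 ± 0.23, limma adjusted p = 0.253). Scd1, which catalyses the same reaction, read 399 and 357 in the Prox1-labelled clones, against 269 and 476 in the pcDNA clones. In contrast to Scd2 its pcDNA clones enclosed the others (log2 change 0.064 ± 0.26, limma adjusted p = 0.941), and the difference between the changes of Scd2 and Scd1 was not tested.

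Hacd1, a dehydratase of very-long-chain fatty acid elongation, had the largest change on the lower side. It read 263 and 264 in the Prox1-labelled clones, against 588 and 777 in the pcDNA clones. The Prox1-labelled values were nearly equal and well under both pcDNA values (log2 change -1.22 ± 0.21, limma adjusted p = 0.0885). It was measured by 1 probe set, whose suffix says that it may match several transcripts. The elongase genes Elovl1, Elovl5 and Elovl6 had log2 changes of 0.27, 0.21 and 0.35, and of these Elovl1 was higher without overlap. With 1 clone left out, Elovl6 ran from 0.092 to 0.62 and Elovl5 from -0.030 to 0.44.

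Sterol transport genes lay on both sides, with 3 of the 5 higher and 2 lower without overlap, where this held for 20.2% and 21.3% of all genes. Abca1, which exports cholesterol to lipid-poor apolipoprotein, read 1695 and 1905 in the Prox1-labelled clones, against 999 and 1113 in the pcDNA clones. The groups stood apart and the clones within each were close (log2 change 0.74 ± 0.19, limma adjusted p = 0.165). Abcg1, which exports cholesterol to lipoprotein particles, read 458 and 477 in the Prox1-labelled clones, against 482 and 579 in the pcDNA clones. It lay the other way, lower without overlap (log2 change -0.16 ± 0.20, limma adjusted p = 0.766). Of the pair that moves cholesterol out of lysosomes, the soluble Npc2 was higher without overlap and the membrane protein gene Npc1, below the filter, was lower without overlap, with log2 changes of 0.24 and -0.30. Stard4, a cytosolic sterol carrier, gave 0.35 on the same scale, higher without overlap (0.14 to 0.56 with 1 clone left out). None of the 5 passed the adjusted limma threshold, and Abca1 alone had an unadjusted p under 0.05. Of genes past the filter, 8.22% were higher and 6.13% lower with an unadjusted limma p under 0.05.

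How far the sterol genes differed depended on which pcDNA clone they were set against. Over the 18 mevalonate and sterol enzymes, the mean of the Prox1-labelled clones exceeded pcDNA clone 1 by a median of 0.60 and pcDNA clone 2 by 0.33 in log2 units. In 13 of the 18, pcDNA clone 2 read higher than pcDNA clone 1, with a median difference of 0.39, and the Prox1-labelled clones differed by a median of 0.21. Mvk exceeded pcDNA clone 1 by 1.62 and pcDNA clone 2 by 0.36. The same pair of values was 2.97 and 1.44 for Msmo1, 1.24 and 0.62 for Sqle, 1.13 and 0.60 for Nsdhl, 1.42 and 0.40 for Fads2, and 0.99 and 0.34 for Scd2. Idi1 (1.61 and 1.22), Fdps (1.11 and 0.92), Abca1 (0.82 and 0.67) and Hacd1 (-1.03 and -1.41) depended less on that choice. For 3 of the 4 regulators the sign turned, with 0.60 and -0.56 for Srebf1, 0.30 and -0.27 for Srebf2 and 1.05 and -0.56 for Scap, and Insig2 gave 0.13 and 0.11. Both values share the Prox1-labelled arrays. Without pcDNA clone 2, limma put 12 members past the adjusted threshold, against 4 without pcDNA clone 1, 3 without Prox1-labelled clone 2 and 2 without Prox1-labelled clone 1. Over all probe sets tested, the shares past it in those fits were 9.87%, 1.14%, 0.575% and 0.360%, so the members' counts went with a change across the whole array.

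**Figure D3:**
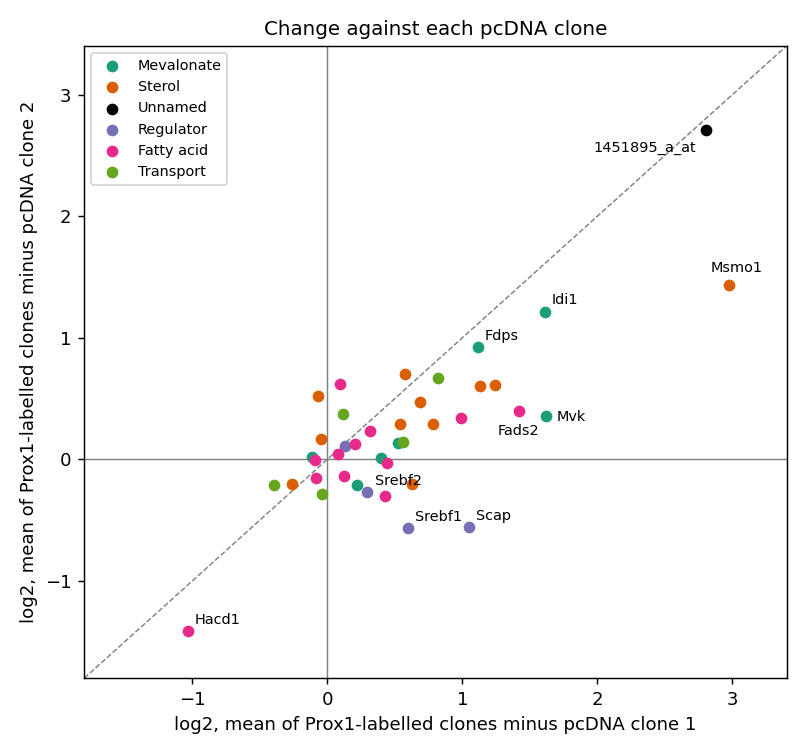
Each point is 1 member, with its log2 difference between the mean of the Prox1-labelled clones and pcDNA clone 1 on the x axis and that against pcDNA clone 2 on the y axis, coloured by class, and the dashed line marks equal differences. Most points lie below the line, Srebf1, Srebf2 and Scap lie right of 0 and below 0, and Idi1, Fdps and Hacd1 lie nearer to the line. The unnamed probe set, marked by its identifier, also lies near the line. Both its pcDNA values were under the highest Bacillus control, so its place does not compare the pcDNA clones.

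Several genes were read by more than 1 probe set, which gives a second look within the same arrays. Of 24 such members, 19 had a positive change at every probe set, 1 (Ggps1) had a negative one at every probe set and 4 (Acly, Acss2, Insig2 and Scd1) had mixed signs. Idi1 (1.29 and 1.41), Fads2 (0.87 and 0.91), Mvk (0.96 and 0.99) and the 3 probe sets of Cyp51 (0.61 to 0.81) and of Scd2 (0.56 to 0.66) lay close together in log2 change. Some were dim and below the filter. The Cyp51 probe set at 0.81 and the Lss ones at 0.69 and 0.64 lay under the highest Bacillus control on all 4 arrays. The Mvk one at 0.96 did so on 2, and its pcDNA clones (54.2 and 28.4) stood in the opposite order to the brighter one. The 3 probe sets of Abca1 ranged from 0.50 to 0.74. Others disagreed. Fdft1 ranged from 0.073 to 1.25 over 4 probe sets, and the one with the highest change read 498 and 608 in the Prox1-labelled clones, against 184 and 228 in the pcDNA clones. The groups were far apart there, and the other 3 gave log2 changes of at most 0.54 (limma adjusted p = 0.0878 at the one with the highest change). The dimmer probe set of Srebf2 read 607 and 539.6 in the Prox1-labelled clones, against 192 and 464 in the pcDNA clones. Both Prox1-labelled values lay above the pcDNA values, unlike at the brighter one. The second probe set of Fdps read 9.84 and 5.56 in the Prox1-labelled clones, against 7.47 and 3.46 in the pcDNA clones. All 4 values are low, and its log2 change was 0.060.

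**Figure D4:**
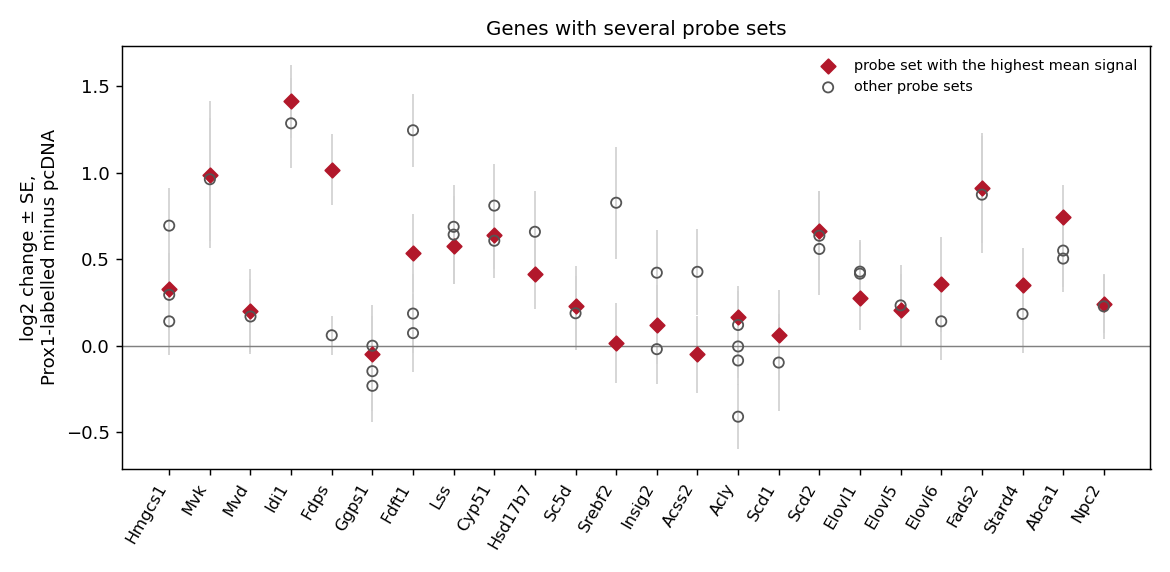
Log2 change (Prox1-labelled minus pcDNA, with the standard error of the fit) of every probe set of the 24 members with more than 1, the brightest as a red diamond and the others as open circles. Idi1, Mvk, Cyp51, Fads2 and Scd2 show tight groups of points, and Fdft1, Fdps and Srebf2 show points far apart. The dimmest points of Mvk, Cyp51 and Fdps come from probe sets below the filter.

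Other genes around these pathways were read from lists that are no members, and limma called 0 genes in all 7 lists. For the counts that follow, 49.6% of all genes had a positive change. Of genes past the filter, 8.22% were higher and 6.13% lower with an unadjusted limma p under 0.05. Of 6 genes measured that use isoprenoids (11 listed), 5 were positive and 1 had an unadjusted p under 0.05. This was Icmt, which methylates prenylated proteins and read 749 and 664 in the Prox1-labelled clones, against 481 and 508 in the pcDNA clones (log2 change 0.48 ± 0.19, limma adjusted p = 0.301), and Dhdds, which starts dolichol synthesis, gave 0.34 (adjusted p = 0.479). Of 6 genes of SREBP processing and INSIG turnover (10 listed), 4 were lower without overlap (21.3% of all genes) and 2 of them had an unadjusted p under 0.05. They were Syvn1, a ubiquitin ligase of the endoplasmic reticulum, which read 495 and 492 in the Prox1-labelled clones, against 1196 and 729 in the pcDNA clones (log2 change -0.86 ± 0.24, limma adjusted p = 0.188), and Sec24d, a coat subunit of vesicles leaving that compartment, with -0.63 (adjusted p = 0.289). Of 5 LXR genes (7 listed), 4 were positive and 1 had an unadjusted p under 0.05, the receptor partner Rxrb with 0.71 (adjusted p = 0.223). Lpcat3, an LXR target, gave 0.37 (adjusted p = 0.546).

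Storage and use of fatty acids showed no common direction. Of 12 genes of fatty acid activation and glycerolipid assembly (15 listed), 5 were positive and 7 negative, and 1 had an unadjusted p under 0.05. This was Plin2, a coat protein of lipid droplets, which read 4353 and 4077 in the Prox1-labelled clones, against 1318 and 3196 in the pcDNA clones. It was higher without overlap, with pcDNA clone 1 far below the others (log2 change 1.02 ± 0.34, limma adjusted p = 0.238), and the fatty acid-binding protein gene Fabp5 gave -0.45 (adjusted p = 0.497). Of 12 genes of fatty acid oxidation, 6 were positive and 6 negative, with 1 at an unadjusted p under 0.05, the carnitine palmitoyltransferase gene Cpt2 (0.66, adjusted p = 0.266), while Acadm, a medium-chain dehydrogenase gene, gave 0.41 (adjusted p = 0.393). All 6 genes of sterol uptake and lysosomal release measured (7 listed) were negative, with a median of -0.15 and 0 at an unadjusted p under 0.05. Of these, 4 passed the filter. Lrp1 and Cd36 did not, and Cd36, at -0.016, lay under the highest Bacillus control on all arrays. Lipa, the lysosomal acid lipase, gave -0.33 (adjusted p = 0.604) and the oxysterol-binding protein gene Osbp -0.25 (adjusted p = 0.614). Among 6 genes of citrate supply and further elongation (7 listed), 2 were positive and 0 reached an unadjusted p under 0.05. Me1, the cytosolic malic enzyme, gave 0.23 (adjusted p = 0.640) and the elongation reductase gene Hsd17b12 -0.22 (adjusted p = 0.659).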

How the data were processed

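Gene expression was measured on 4 one-colour arrays, 1 for each of 2 Prox1-labelled and 2 pcDNA clones. The labels' protocols give TRIzol extraction and about 10 µg of total RNA turned into biotinylated cRNA. The deposited values are intensities per probe set on a linear scale, and the submitters' processing notes name MAS5, an Affymetrix summary of probes into 1 signal (version not given in the sources used here). Each deposited column had a mean of 500 after trimming 2% at either end, and no further normalization was applied. Detection calls were not used here. Whether the trimmed scaling was the authors' last step is not stated.

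From these, log2(intensity + 47) was computed, 47 being the 25th percentile of the deposited values, and fold changes of dim probe sets are understated on this scale. Probe sets above their array's median on at least 2 arrays were tested, 11656 of 22690, with 64 Affymetrix controls left out. The comparison used limma 3.58.1 under R 4.3.3 (lmFit, eBayes with an intensity trend, two-sided, Benjamini-Hochberg over all probe sets tested). Adjusted p-values are from that fit, and errors are its standard errors. The platform annotation gave 20380 probe sets 1 gene, 691 several and 1555 none, and 20364 probe sets with 1 gene, controls included, matched RefSeq GRCm38.p6 by Entrez identifier, with 0 symbols changed. The number of arrays limits the precision. The procedure was tested on simulated data.

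All members may be named. The 12 with the smallest unadjusted p and the regulators were given per clone, and 2 genes of each other list where none passed. Other values given per clone, and the promoters shown, were chosen after they were seen. The members and lists were chosen with earlier results of these data known. Alternatives covered scaling, pseudocount, filter and variance model, a block for clone number, each clone left out, and the choice of probe set. No label says that clone numbers pair the clones, and the main fit did not pair them. Deviations of same-numbered clones from their group means correlated at -0.0091 over probe sets past the filter. This pooled value cannot tell whether part of the probe sets share a pairing.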

Additional observations from a re-analysis of the deposited data

How the results depend on the processing

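The median over all members kept its sign under every alternative run, from 0.14 without pcDNA clone 1 to 0.44 without pcDNA clone 2 when a clone was left out. With a clone left out, the median of the fatty acid enzymes ran between 0.020 and 0.16, and that of the mevalonate and sterol enzymes from 0.33 to 0.60. Without a clone, the members past the threshold numbered 2 to 12, those higher without overlap 22 to 29 and those lower 6 to 12, where 30.9% to 40.6% of all genes were higher and 33.0% to 40.4% lower. A group left with 1 clone is assumed to vary like the other, and with fewer values to separate, non-overlap is easier to reach. The limma count past the threshold was 0 without the filter, with the 75th percentile filter and without probe sets that may match several transcripts, where 12, 10 and 11 members had an unadjusted p under 0.05; the unnamed probe set (adjusted p = 0.367 without the filter) is not among those tested in the last 2. It was 5 with the clone number as a replicate block (the unnamed probe set, Idi1, Fdps, Msmo1 and Hacd1). Over the whole array 12 probe sets were called, with 110 under the block, 0 without the filter, 4 under quantile normalization, 8 under median centring, 7 with the robust variance model, 6 without those that may match several transcripts and 42 to 1150 on leaving out a clone (42 and 67 without Prox1-labelled clones 1 and 2, 133 and 1150 without pcDNA clones 1 and 2). By the labels, same-numbered clones share only a number, and the cause of the higher count under the block was not tested. Small changes turned sign. Under quantile normalization and median centring these were Pmvk (-0.042 in both), Srebf1 (-0.025 and -0.028) and Srebf2 (-0.018 and -0.032), and under quantile normalization Tm7sf2 (-0.00087). With the mean over all probe sets they were Acly (-0.043), Acss2 (0.19) and Scd1 (-0.017). On leaving out a clone the sign turned for Acss2 (-0.13 to 0.029), Dhcr7 (-0.20 to 0.63), Elovl5 (-0.030 to 0.44), Fads1 (-0.14 to 0.12), Ggps1 (-0.21 to 0.12), Insig2 (-0.14 to 0.38), Mvd (-0.013 to 0.42), Pmvk (-0.21 to 0.22), Sc5d (-0.070 to 0.52), Scap (-0.56 to 1.05), Scd1 (-0.30 to 0.43), Srebf1 (-0.56 to 0.60), Srebf2 (-0.27 to 0.30) and Tm7sf2 (-0.045 to 0.17). The cause of these turns was not tested. Signals near the Bacillus controls, such as the pcDNA values of the unnamed probe set, leave the size of a change as a bound.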
